A study of Homo sapiens with 4 samples.

Results

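The 9 genes described here encode NRF2, its inhibitor, and enzymes that keep thiols reduced, break down haem or stop lipid peroxidation, the reaction that drives ferroptotic cell death. They were chosen by name as the NRF2 antioxidant and ferroptosis guard genes NFE2L2, KEAP1, NQO1, HMOX1, GCLM, GCLC, TXNRD1, SRXN1 and GPX4, and all 9 were found among 62649 genes counted. Their levels were compared between vemurafenib-resistant A375 cells (2 libraries) and parental A375 cells (2 libraries). A375 is a human melanoma line with an activating BRAF mutation, and vemurafenib inhibits the mutant kinase. Resistance was selected by raising the vemurafenib concentration each week from 0.1 to 6.4 µM. Whether the drug was still in the medium when RNA was taken, and whether the resistant line is a pool or 1 clone, is not given. The protocol shared by all samples speaks of harvest after treatment with sorafenib, pioglitazone, both or DMSO as vehicle, while the titles of these 4 libraries name none of them.

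NRF2, encoded by NFE2L2, is a transcription factor held at a low level by KEAP1, which presents it to a CUL3 ubiquitin ligase for destruction. Oxidants and electrophiles modify cysteines of KEAP1, NRF2 then escapes destruction, pairs with a small MAF protein and binds antioxidant response elements near its target genes. Control is thus mainly on the protein, and the transcripts of its targets are commonly read as a sign of its activity. Ferroptosis, a death driven by iron and oxidised membrane lipids, is held back by the selenoenzyme GPX4, which uses glutathione to reduce lipid peroxides.

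None of the 9 genes passed the test between resistant and parental cells, and 8 of them had fitted log2 fold changes between -0.47 and 0.29. HMOX1, the gene of haem oxygenase 1, was the exception in size: it was about 9-fold higher in resistant replicate 1 than in resistant replicate 2, which lay near the parental cells. The edgeR quasi-likelihood test with Benjamini-Hochberg adjustment called 0 of the 9 genes higher and 0 lower, with 1 at an unadjusted p under 0.05. DESeq2 and limma-voom called 0 as well, with 0 at an unadjusted p under 0.05. Over all 24961 genes tested, 1.09% were called in either direction, 0.577% higher and 0.513% lower, and 13.5% had an unadjusted p under 0.05. The median log2 fold change of the 9 genes was 0.088, beside 0.0056 over all genes tested. The p-values cover only how these 4 libraries spread, and that spread may be technical: the design text calls replicates biological, but separate cultures are not stated. In bulk RNA, fewer cells that make a transcript and less of it per cell cannot be told apart.

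The element that NRF2 binds has the core TGACNNNGC, and the core was searched on both strands of the RefSeq promoter windows (GRCh38.p14, 250 bases before to 50 after a start site). Of the 9 genes, 8 had an entry and HMOX1 had none. There were 13 windows in all, since several genes have more than 1 start site. The core was found in 4 of the 13 windows, which belong to KEAP1, GCLM and TXNRD1, and in 13.3% of 35116 windows of all genes. Bases further upstream were not searched, so a gene without a match here may hold one elsewhere. For each of the 3 genes, 60 bases upstream of a start site are shown to let the inhibitor gene be read beside both target genes, with the core in capitals.
KEAP1: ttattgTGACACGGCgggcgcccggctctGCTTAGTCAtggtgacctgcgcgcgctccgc
GCLM: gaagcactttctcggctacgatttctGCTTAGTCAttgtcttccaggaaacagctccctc
TXNRD1: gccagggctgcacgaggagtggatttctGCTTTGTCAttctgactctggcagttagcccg
The stretches lie at chr19:10502772-10502831 (minus strand), chr1:93909431-93909490 (minus strand) and chr12:104286902-104286961 (plus strand). KEAP1 and GCLM hold the same 9 bases, GCTTAGTCA, a match on the opposite strand, and KEAP1 holds a further match, which does not overlap it. TXNRD1 holds GCTTTGTCA in the stretch shown, and its other window, at chr12:104215529-104215828, holds 2 further matches. The KEAP1 and GCLM stretches end at the base before the start site, and the TXNRD1 stretch runs from -130 to -71 relative to its own. A match of letters is a description and does not show that NRF2 binds there.

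Counts assigned to genes totalled 68022689 and 85197524 in the resistant libraries and 72290468 and 87178097 in the parental ones, and every value of parental replicate 1 was even. Levels are given as CPM (counts scaled to a library size of 1e+06) with TMM scaling, mean ± SD over n = 2 libraries per group, and fold changes as fitted log2 values, resistant over parental, ± SE. Of 12 melanoma markers 5 averaged 5 CPM or more in at least 1 group, and 0 passed the test. The melanoma markers SOX10 and ERBB3 were abundant in all libraries, while the pigment genes TYR and DCT stayed under 0.3 CPM. At 5 CPM or more PAX3 had the highest fold change of these markers and MITF the lowest. The 7 fibroblast markers summed to 13.3 and 11.7 CPM in resistant cells, against 15.4 and 12.1 CPM in parental cells. All 6 leukocyte markers averaged under 1 CPM, and they are given beside HMOX1. Summed markers of keratinocytes and other epithelia came to 5.95 and 5.44 CPM in resistant cells, against 10.5 and 15.7 CPM in parental cells. Of the 6 tested, KRT14 passed as lower, KRT15 had a log2 fold change of -1.28 without passing, and 4 had positive values.

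The regulator gene NFE2L2 (ENSG00000116044.17, chromosome 2, 177218667 to 177392756, GRCh38) had 67.8 and 60.5 CPM in resistant cells, against 53.5 and 62.5 CPM in parental cells. The groups overlapped, since parental replicate 2 lay above resistant replicate 2. The log2 fold change was 0.15 ± 0.17 (edgeR adjusted p = 0.797), with a 95% interval of -0.25 to 0.54. Of its annotated exonic bases, 24.8% are also exonic in a gene on the opposite strand and 13.6% in a gene on the same strand. Reads there were dropped as ambiguous, so its level is understated.

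KEAP1 (ENSG00000079999.14, chromosome 19, 10486125 to 10503558) had 51.2 and 54.1 CPM in resistant cells, against 69.8 and 50.1 CPM in parental cells. Both resistant libraries lay between the parental ones. Its log2 fold change was -0.19 ± 0.20 (edgeR adjusted p = 0.768, 95% interval -0.65 to 0.28) and turned to 0.074 without parental replicate 1. Per exonic length, as TPM (counts per exonic length, scaled to 1e+06 in each library), the ratio of KEAP1 to NFE2L2 was 3.17 and 3.75 in resistant cells, against 5.47 and 3.36 in parental cells. The ratio too overlapped between the groups. Its size rests on the annotated lengths, 14975 exonic bases for NFE2L2 and 3573 for KEAP1, and the level of NFE2L2 is understated. The ratio therefore does not show how much more KEAP1 than NFE2L2 transcript there was.

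**Figure D1:**
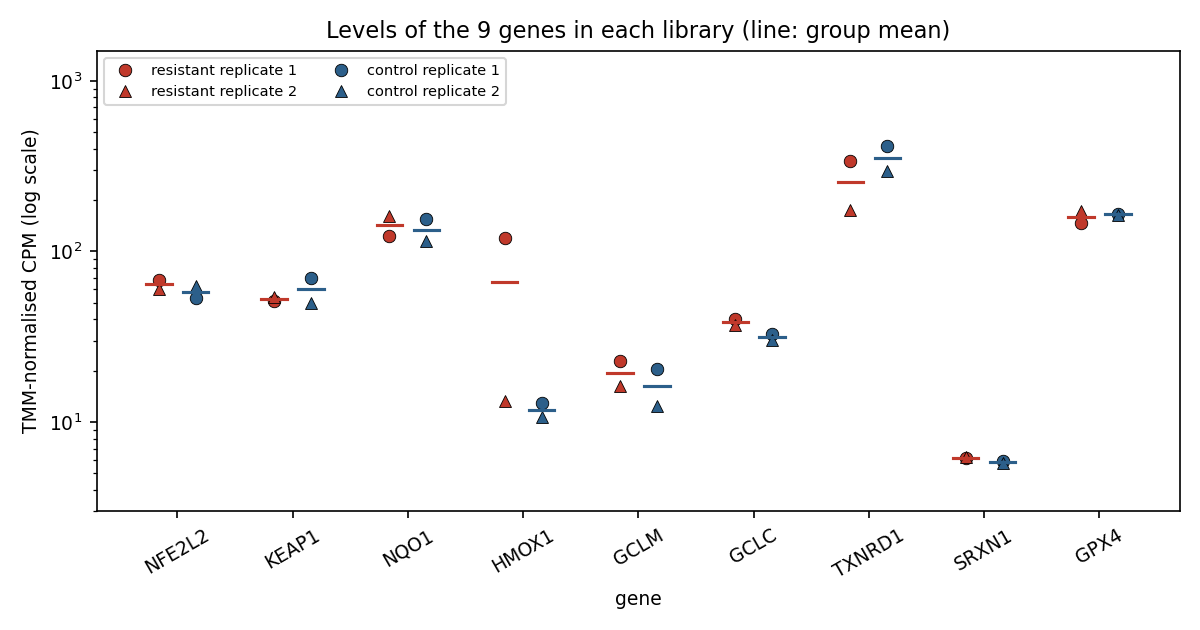
TMM-normalised CPM on a log axis for each of the 9 genes (x axis) in resistant libraries (red) and parental control libraries (blue), with circles for replicate 1, triangles for replicate 2 and lines for group means. HMOX1 in resistant replicate 1, at 119.96 CPM, is the one point far from the other 3 of its gene.

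Among the target genes, NQO1 encodes a quinone reductase and is a widely used readout of NRF2. NQO1 (ENSG00000181019.13, chromosome 16, 69706996 to 69726668) had 123 and 162 CPM in resistant cells, against 154 and 115 CPM in parental cells. The libraries of the groups interleaved. The log2 fold change was 0.088 ± 0.22 (edgeR adjusted p = 0.922), with a 95% interval of -0.41 to 0.59, and it was negative when either replicate 2, resistant or parental, was left out. A gene on the opposite strand shares 19.4% of its exonic bases. Reads there were dropped as ambiguous, so the level of NQO1 is understated. That gene had 0 counts in all 4 libraries, which does not show that NQO1 lost no reads.

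HMOX1 encodes the inducible enzyme that splits haem into biliverdin, carbon monoxide and iron. HMOX1 (ENSG00000100292.18, chromosome 22, 35380361 to 35394214) had 119.96 and 13.4 CPM in resistant cells, on 8527 and 1105 counts, against 12.9 and 10.6 CPM in parental cells, on 926 and 922 counts. Resistant replicate 1 stood 8.98-fold above resistant replicate 2, and 9.27-fold and 11.3-fold above parental replicates 1 and 2. Resistant replicate 2 was 1.03-fold and 1.26-fold above the same parental libraries. Both resistant libraries were thus above both parental ones, but replicate 2 barely so. The summed leukocyte markers, from cells in which HMOX1 can be abundant, came to 2.15 CPM in resistant replicate 1, within the 1.06 and 2.31 CPM of parental replicates 1 and 2. The 5 endothelial markers summed to 48.3 and 26.9 CPM in resistant replicates 1 and 2, against 21.9 and 23.7 CPM in parental replicates 1 and 2, so they too were highest in resistant replicate 1. Most of that sum was KDR, with 44.3 and 23.6 CPM in the resistant libraries, against 16.01 and 18.9 CPM in the parental ones, while PECAM1 stayed under 1 CPM in all 4. Their part in the HMOX1 value was not tested.

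The resistant mean of HMOX1 was 66.7 ± 75.4 CPM and the parental mean 11.8 ± 1.62 CPM. The log2 fold change was 2.50 ± 0.81 (edgeR adjusted p = 0.219, unadjusted p = 0.0157), a 5.65-fold difference with a 95% interval of 0.62 to 4.38 on the log2 scale. Leaving out resistant replicate 1 gave 0.19 (edgeR adjusted p = 0.969), and leaving out resistant replicate 2 gave 3.35 (edgeR adjusted p = 0.0175). It passed as well without parental replicate 1 (log2 2.64, edgeR adjusted p = 0.00353) and missed without parental replicate 2 (log2 2.37, adjusted p = 0.0725). Over 12 alternative fits its adjusted p ranged from 9.47e-26 to 0.969. In the fits that left out a library of 1 group, the remaining library was assumed to vary like those of the other group.

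Of 10089 genes that averaged 10 CPM or more, HMOX1 had the second largest difference between them in either direction (log2 of replicate 2 over replicate 1, with 0.5 CPM added, -3.12). In the parental pair the same measure was -0.27. The SD of this measure over those genes was 0.304 in the resistant pair and 0.400 in the parental pair. TXNRD1 ranked 110 of the same 10089 genes in the resistant pair (-0.95) and GCLM 1008 (-0.48), both higher in resistant replicate 1. NQO1 ranked 1643 (0.39) and was higher in resistant replicate 2. In the parental pair TXNRD1, GCLM and NQO1 were all higher in replicate 1 (-0.49, -0.70 and -0.42), GCLM by more than in the resistant pair.

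**Figure D2:**
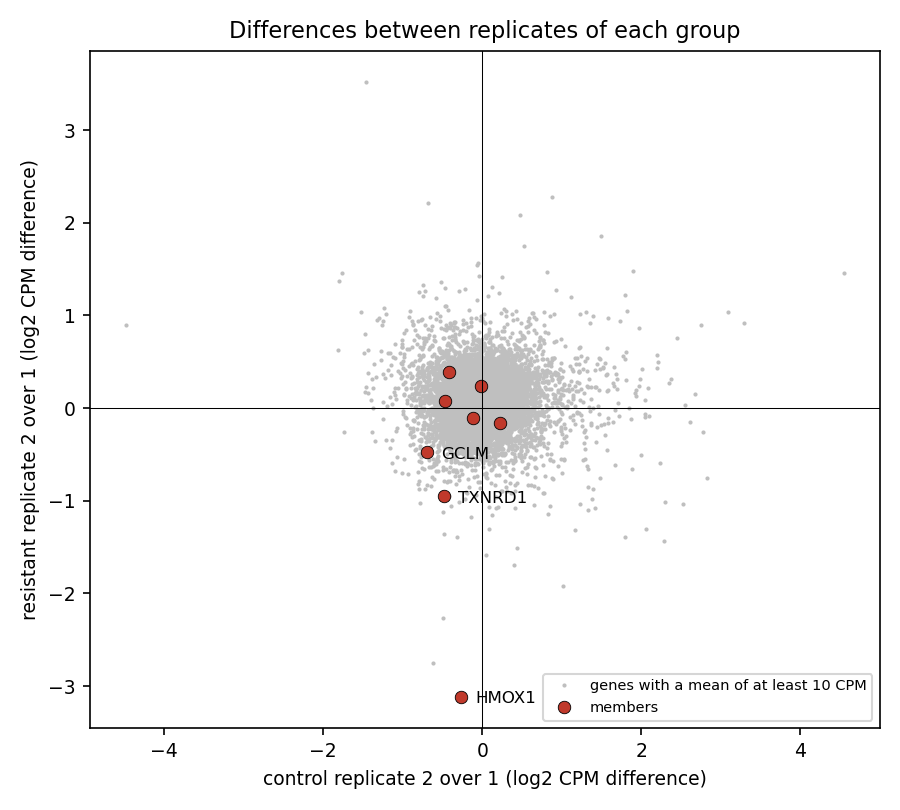
Log2 difference between replicates 2 and 1 for 10089 genes that averaged 10 CPM or more (grey) and the 8 members among them (red; SRXN1 was below that level), in the parental pair (x axis) and in the resistant pair (y axis). HMOX1 lies at -3.12 on the resistant axis and -0.27 on the parental axis, apart from the other members.

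Glutathione is made in 2 steps, and the first is run by glutamate-cysteine ligase, with a catalytic subunit from GCLC and a modifier subunit from GCLM. GCLC (ENSG00000001084.13, chromosome 6, 53497341 to 53616970) had 39.97 and 37.1 CPM in resistant cells, against 32.9 and 30.2 CPM in parental cells. The groups did not overlap, and the difference was small (log2 0.29 ± 0.17, edgeR adjusted p = 0.536, 95% interval -0.11 to 0.68). It stayed between 0.23 and 0.35 in all 12 alternative fits and never passed the threshold. Groups that do not overlap are common here: 44.6% of all tested genes show this, and 3 of the 9 members (HMOX1, GCLC and SRXN1).

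GCLM (ENSG00000023909.10, chromosome 1, 93885199 to 93909456) had 22.8 and 16.2 CPM in resistant cells, against 20.4 and 12.4 CPM in parental cells. In both groups replicate 1 was the higher library, and the groups overlapped. The log2 fold change was 0.25 ± 0.29 (edgeR adjusted p = 0.786, 95% interval -0.41 to 0.92), from -0.059 without parental replicate 2 to 0.65 without parental replicate 1. Per length, the ratio of GCLM to GCLC was 0.906 and 0.694 in resistant cells, against 0.983 and 0.651 in parental cells. The ratio was below 1 in all 4 libraries, with no separation of the groups. Its size rests on the annotated lengths, 8618 exonic bases for GCLC and 5426 for GCLM. Of the exonic bases of GCLC, 3.54% are shared with a gene on the opposite strand and 6.14% with a gene on the same strand. The ratio therefore does not show which of the transcripts was more abundant.

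TXNRD1 encodes the cytosolic thioredoxin reductase, a selenoenzyme that reduces thioredoxin with NADPH, and it had the lowest fold change of the 9 genes. TXNRD1 (ENSG00000198431.18, chromosome 12, 104215779 to 104350307) had 338 and 174 CPM in resistant cells, against 414 and 296 CPM in parental cells. Resistant replicate 1 lay between the parental libraries, and resistant replicate 2 was below both. The log2 fold change was -0.47 ± 0.32 (edgeR adjusted p = 0.601, 95% interval -1.21 to 0.27). It moved to -1.02 with resistant replicate 1 left out and to -0.066 with resistant replicate 2 left out, and it passed in neither.

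TXNRD1 lies in a stretch of chromosome 12 whose genes tended to be lower in resistant cells. Neighbouring genes were looked at because earlier results of these data showed runs that moved together, so the counts here are descriptions. Over all genes tested the median log2 fold change was 0.0056. From 70 to 110 Mb, 127 tested genes reached 3 CPM or more in either group, TXNRD1 among them. Of these, 103 had a negative log2 fold change, and the median over all 127 was -0.29. Within 10 Mb on either side of TXNRD1 the median of 116 such genes was -0.21, with quartiles of -0.45 and 0.027. For the other 8 members the median of the neighbours lay between -0.082 for GCLC and 0.0996 for NFE2L2. The part of position in the value of TXNRD1 was not tested.

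SRXN1 encodes sulfiredoxin, which returns over-oxidised peroxiredoxins to their active form. SRXN1 (ENSG00000271303.2, chromosome 20, 646615 to 653200) had 6.18 and 6.23 CPM in resistant cells, on 439 and 515 counts, against 5.95 and 5.80 CPM in parental cells, on 426 and 502 counts. Its libraries were the closest of the 9 genes, and the groups did not overlap by a small margin (log2 0.078 ± 0.24, edgeR adjusted p = 0.939, 95% interval -0.47 to 0.62). A gene annotated on the same strand, ENSG00000270299, shares 90.7% of its exonic bases and itself received 5 and 2 counts in resistant cells and 2 in each parental library. Reads that touch shared bases were dropped, so the counts of SRXN1 come only from reads that touch no more than the other 9.34% of its exonic bases. The level is therefore far understated and is not comparable with the other members.

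GPX4 (ENSG00000167468.19, chromosome 19, 1103994 to 1106791), the lipid peroxide reductase at the centre of ferroptosis control, had 146 and 173 CPM in resistant cells, against 166 and 164 CPM in parental cells. The resistant libraries lay on either side of the parental pair. The log2 fold change was -0.049 ± 0.17 (edgeR adjusted p = 0.949, 95% interval -0.44 to 0.35), and it was 0.073 without resistant replicate 1. The interval leaves room for a difference of less than 1.5-fold in either direction.

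**Figure D3:**
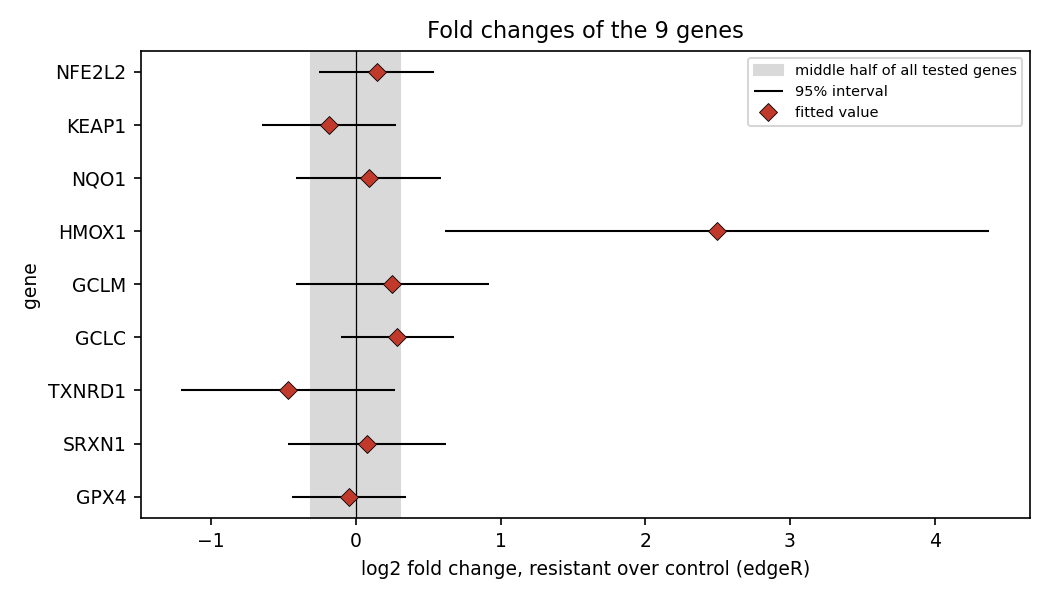
Fitted log2 fold change of each of the 9 genes (x axis, resistant over parental), with its 95% interval as a line and the range between the quartiles of all 24961 tested genes in grey. The intervals of 8 genes include 0, and that of HMOX1 runs from 0.62 to 4.38.

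Set side by side, the intervals of 7 of the 9 genes lay within a 2-fold difference in either direction. Those of HMOX1 and TXNRD1 did not. An interval that includes 0 does not show that a gene is unchanged, and the intervals take the spread as edgeR estimated it from all genes.

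**Figure D4:**
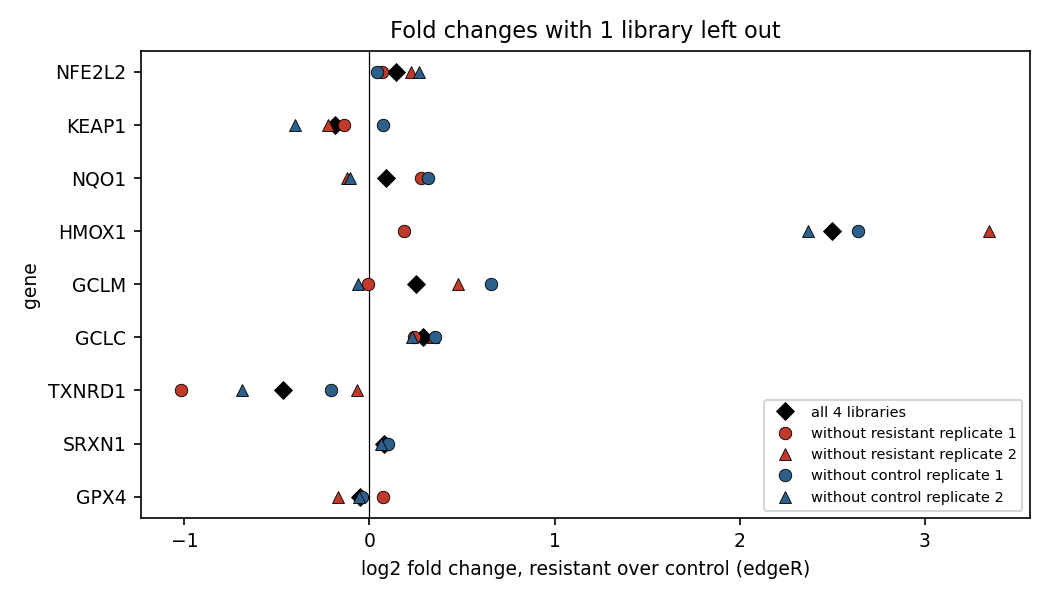
Fitted log2 fold change (x axis, resistant over parental) of each gene with all 4 libraries (black) and with 1 library left out (red: a resistant one, blue: a parental one). HMOX1 moves from 2.50 to 0.19 without resistant replicate 1, and KEAP1, NQO1, GCLM and GPX4 cross 0.

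Per exonic length, the levels spanned a wide range, and the order was much the same in both groups. GPX4 was highest, with a mean of 300.4 ± 19.8 TPM in resistant cells and 304 ± 4.60 TPM in parental cells. NQO1 had 176 ± 25.2 TPM in resistant cells and 162 ± 29.9 TPM in parental cells, and TXNRD1 142 ± 70.8 and 189.8 ± 40.6 TPM in the same order. These 2 genes overlapped each other in both groups and cannot be ranked. KEAP1 had 54.2 ± 0.647 TPM in resistant cells and 60.2 ± 12.6 TPM in parental cells.

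HMOX1 took different places, with 198 and 20.6 TPM in the resistant libraries, against 19.9 and 16.9 TPM in the parental ones. NFE2L2 (15.8 ± 2.06 TPM in resistant cells and 13.95 ± 1.86 TPM in parental cells), GCLC (16.5 ± 1.69 and 13.2 ± 0.496) and GCLM (13.3 ± 3.83 and 10.8 ± 3.49) did not separate from each other beyond their spread. NFE2L2 has 14975 annotated exonic bases, so its value per length is low for the transcripts it makes most.

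Likeness of pattern was measured as the Euclidean distance between log2 CPM centred on each gene's mean over the 4 libraries, among 177 other genes of the pathway lists that averaged 5 CPM or more. The nearest to NFE2L2 were the acetyltransferase gene EP300 (distance 0.147), CHMP5, a gene of membrane repair (0.175), and CISD2, which encodes an iron-sulfur protein (0.182). The nearest to HMOX1 was SOD2, the mitochondrial superoxide dismutase gene, at a distance of 1.67, followed by SYVN1 (2.13) and GCH1 (2.21). The values were not scaled, so a distance reflects the size of differences as well as their shape. SYVN1, for instance, had 145 and 101 CPM in resistant cells, against 53.7 and 82.8 CPM in parental cells. With 4 libraries such distances are descriptions.

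SOD2 had 202 and 89.6 CPM in resistant cells, against 81.3 and 73.6 CPM in parental cells. It was 2.26-fold higher in resistant replicate 1 than in resistant replicate 2. Of 178 members and listed genes that averaged 5 CPM or more, only HMOX1 and SOD2 were at least 2-fold higher in resistant replicate 1 than in resistant replicate 2, and 1 was at least 2-fold higher in resistant replicate 2. In the parental pair, 3 such genes were at least 2-fold higher in replicate 1 and 5 in replicate 2. The gene higher in resistant replicate 2 was TXNRD2, of the mitochondrial thioredoxin reductase, with 24.9 and 60.3 CPM in resistant replicates 1 and 2.

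The wider pathway was followed in 11 lists with 206 genes beside the 9 members, of which 196 were tested. Of these, 1 passed, PIR, which was lower in resistant cells, and 0 were higher (edgeR over all genes, against 1.09% of all genes called). The median log2 fold change of the 196 genes was -0.020. The lists also hold some of the members and share some genes, so the counts and medians of each list are not separate from the members. PIR encodes pirin, an iron-binding nuclear protein and a known NRF2 target. PIR had 16.8 and 16.4 CPM in resistant cells, against 81.2 and 53.4 CPM in parental cells. Both resistant libraries were well below both parental ones (log2 -2.02 ± 0.23, edgeR adjusted p = 0.0173). Without resistant replicate 2 it had an adjusted p of 0.114 at a log2 fold change of -2.00, and in the other 11 alternatives it passed.

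**Figure D5:**
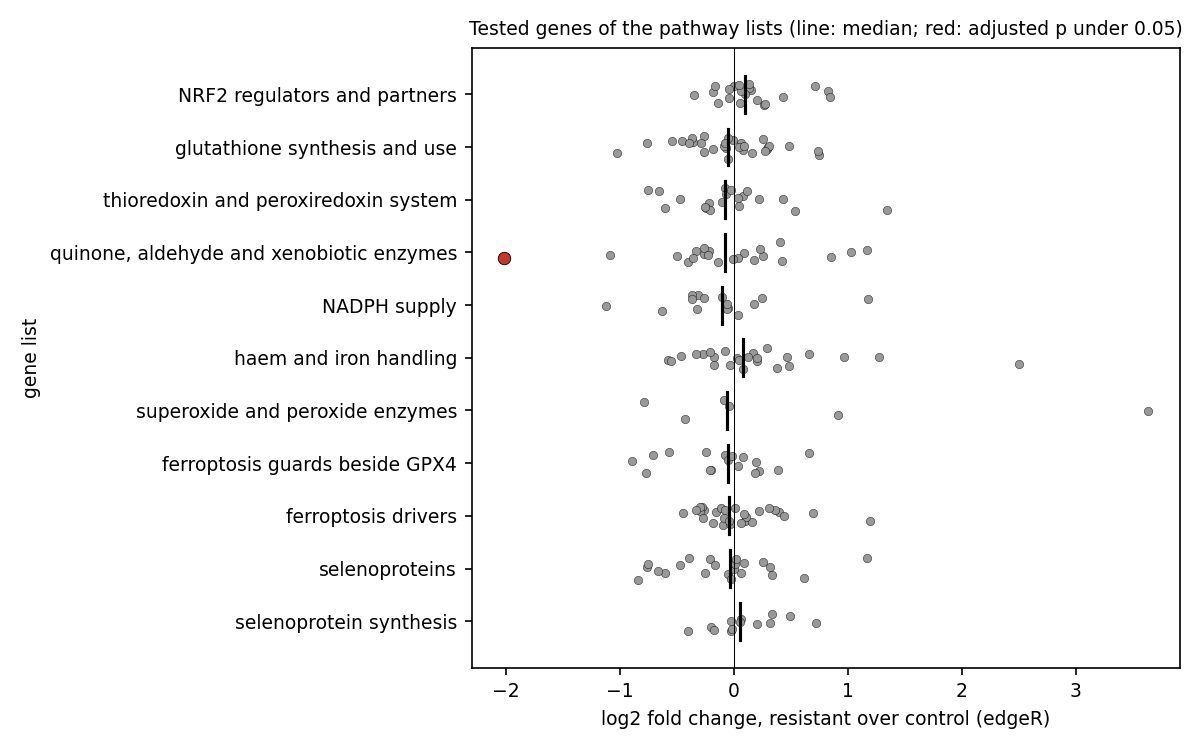
Log2 fold change (x axis, resistant over parental) of each tested gene in 11 pathway lists, with a line at the median of each list and red for an adjusted p under 0.05. PIR, at -2.02, is the one red point, and HMOX1 lies at 2.50 among the haem and iron genes.

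In the account of the lists, the highest and lowest values are those among genes that averaged 5 CPM or more in at least 1 group, and counts at an unadjusted p under 0.05 are to be read against 13.5% of all tested genes. Regulators and partners of NRF2 had 0 of 21 genes past the test and 3 at an unadjusted p under 0.05, with a median of 0.0996. SYVN1, which encodes a ubiquitin ligase of the endoplasmic reticulum, had the highest value (log2 0.85, edgeR adjusted p = 0.198). RBX1, the RING subunit of the CUL3 ligase, had the lowest (log2 -0.35, adjusted p = 0.626).

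Of the glutathione genes, 30 of 32 were tested and 0 passed, with 4 at an unadjusted p under 0.05 and a median of -0.050. GSTK1, a mitochondrial and peroxisomal glutathione transferase gene, had 132 and 149 CPM in resistant cells, against 84.4 and 83.0 CPM in parental cells (log2 0.75 ± 0.16, edgeR adjusted p = 0.0862). The groups did not overlap, but the difference did not pass. OPLAH, the oxoprolinase gene, had the lowest value (log2 -1.03, edgeR adjusted p = 0.152).

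In the thioredoxin and peroxiredoxin list 0 of 20 genes passed and 2 had an unadjusted p under 0.05, with a median of -0.076. SESN3, a sestrin gene, had 7.33 and 5.24 CPM in resistant cells, against 2.52 and 2.45 CPM in parental cells (log2 1.34 ± 0.29, edgeR adjusted p = 0.0807). TXNRD2 had the lowest value of the list (log2 -0.75, edgeR adjusted p = 0.436).

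Among quinone, aldehyde and xenobiotic enzymes, PIR was the 1 gene of 22 tested that passed, and 6 had an unadjusted p under 0.05. AKR1C2 had the highest value (6.06 ± 0.688 CPM in resistant cells and 2.71 ± 0.283 CPM in parental cells, log2 1.16, edgeR adjusted p = 0.098). It is nearly identical to its AKR1C neighbours, and reads that mapped to several places were left out, so its value is uncertain.

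NADPH is the reductant that thioredoxin and glutathione reductases draw on. In that list 0 of 15 genes passed, 3 had an unadjusted p under 0.05 and the median was -0.10. TKT, the transketolase gene of the pentose phosphate pathway, had 422 and 585 CPM in resistant cells, against 1215 and 973 CPM in parental cells (log2 -1.12 ± 0.22, edgeR adjusted p = 0.0675). IDH1, the cytosolic isocitrate dehydrogenase gene, had 181 and 205 CPM in resistant cells, against 54.2 and 116 CPM in parental cells (log2 1.18 ± 0.33, edgeR adjusted p = 0.153). Both genes separated the groups without passing, in opposite directions.

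Haem and iron genes had 0 of 25 tested past the threshold and 3 at an unadjusted p under 0.05, with a median of 0.077. HMOX1 had the highest value there. ACO1, which encodes the iron-sensing cytosolic aconitase, had the lowest (log2 -0.58, edgeR adjusted p = 0.343). Of 6 superoxide and peroxide enzymes 0 passed and 3 had an unadjusted p under 0.05 (median -0.062). SOD3, the gene of the secreted superoxide dismutase, lay below 5 CPM and is named after its values were seen, with 0.985 and 1.62 CPM in resistant cells, against 0.168 and 0.0462 CPM in parental cells (log2 3.63 ± 0.64, edgeR adjusted p = 0.0505). The groups were far apart on few counts, and the difference did not pass. At 5 CPM or more SOD2 was the highest (log2 0.91, edgeR adjusted p = 0.29) and CAT, the catalase gene, the lowest (log2 -0.79, adjusted p = 0.193).

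Other genes that hold ferroptosis back had 0 of 17 past the test and 3 at an unadjusted p under 0.05, with a median of -0.056. GCH1, the first enzyme of tetrahydrobiopterin synthesis, had the highest value (log2 0.66, edgeR adjusted p = 0.303). SCD, a desaturase that makes monounsaturated fatty acids, had the lowest (log2 -0.89, adjusted p = 0.29), with 373 and 421 CPM in resistant cells, against 1006 and 465 CPM in parental cells. Of 28 genes that favour ferroptosis, 0 passed and 1 had an unadjusted p under 0.05 (median -0.040). ACSL4, which activates polyunsaturated fatty acids for use in membrane lipids, was the lowest (log2 -0.44, edgeR adjusted p = 0.307), and TMEM164 the highest (log2 0.44, adjusted p = 0.453).

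TXNRD1 and GPX4 are selenoproteins, which need a dedicated machinery to insert selenocysteine. Of 25 selenoprotein genes 22 were tested and 0 passed, with 3 at an unadjusted p under 0.05 and a median of -0.037. GPX1, a cytosolic glutathione peroxidase gene on chromosome 3, had 26.0 and 29.2 CPM in resistant cells, against 50.6 and 43.3 CPM in parental cells (log2 -0.77 ± 0.18, edgeR adjusted p = 0.101), and shares 39.9% of its exonic bases with another annotated gene. At 5 CPM or more SELENOS had the highest value (log2 0.62, adjusted p = 0.266). Of 13 genes of selenoprotein synthesis 0 passed and 1 had an unadjusted p under 0.05 (median 0.049), from -0.40 for EEFSEC, the selenocysteine elongation factor gene, to 0.72 for ALKBH8 (edgeR adjusted p = 0.432 and 0.1999).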

How the data were processed

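Total RNA of 4 libraries was polyA-selected, made into strand-specific libraries and sequenced in pairs, per the labels' protocols. The deposited files hold raw gene counts, made by the authors with featureCounts 2.0.0 on duplicate-marked alignments against GENCODE release 42, per the file headers. The headers of both resistant files carry other sample numbers than their labels, and the labels were followed. STAR, DESeq2 and GRCh38 are named in the submitters' processing notes. No option beside annotation and output is in the header, so by default strand was ignored, mates were counted singly, and reads on several places or genes were left out. A gene and its antisense partner can thus not be told apart.

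Of 62649 gene identifiers 62625 matched a symbol. Genes were filtered with filterByExpr, scaled with TMM and compared between groups by the two-sided quasi-likelihood F test of edgeR. The test covered 24961 genes with Benjamini-Hochberg adjustment (threshold 0.05, R 4.3.3, edgeR 4.0.16, limma 3.58.1, DESeq2 1.42.0). Its code was run on simulated counts that gave all genes the same spread. That check does not cover a difference that rests on 1 library, or a library of even counts. The SE was taken as the log2 fold change over the root of F, and 95% intervals use 7.69 degrees of freedom. For counting error only, a count of 3 is 0.0441 and 0.0352 CPM in resistant replicates 1 and 2, and 0.0415 and 0.0344 CPM in parental ones. These values use total counts without TMM scaling. Parental replicate 1 held only even values, so a count of 3 does not occur there and its counting error may be larger. Within a group the libraries differed by far more than counting error (chi-square over its degrees of freedom 63.1 in resistant and 118 in parental cells). The parental value includes the even counts of replicate 1 as deposited, so its size is uncertain and is not compared with the resistant one. Each library thus counts as a library of its own, though that does not show separate cultures. Over 10089 genes log2 CPM correlated at r = 0.961 between the parental libraries and at 0.978 between the resistant ones. Parental replicate 2 correlated at 0.956 and 0.965 with resistant replicates 1 and 2, and parental replicate 1 at 0.912 and 0.921. The parental libraries were thus no closer to each other than parental replicate 2 was to resistant replicate 2.

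The members and lists were chosen with earlier results of these data known. All 9 members are named whatever their values, and of each list the genes past the threshold or, where fewer than 2 pass, those with the highest and lowest fold change at 5 CPM or more. Alternatives were other scalings, filters, DESeq2, limma-voom, a replicate block, each library left out, and parental replicate 1 halved. One further gene of the set, and a deposited fold change table without a named comparison, are not reported here.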

Additional observations from a re-analysis of the deposited data

How the results depend on the processing

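The number of members called higher was 1 without a filter on low counts (HMOX1) and 0 to 1 with 1 library left out; 0 members were called lower in any of the 12 alternatives. All genes called higher and lower numbered 144 and 128, but 905 and 961 without a filter, 94 and 82 with a mean of at least 1 CPM, 595 and 635 with DESeq2, 33 and 31 with the replicate block, and 7 to 1146 and 9 to 1020 with 1 library left out. Listed pathway genes called numbered 1, but 2 with RLE size factors, with limma-voom and with parental replicate 1 halved, 18 without a filter, 10 with DESeq2 and 0 to 26 with 1 library left out. The median log2 fold change of the members lay between -0.054 and 0.13. Signs turned with 1 library left out for KEAP1 (range -0.40 to 0.074, positive without parental replicate 1), NQO1 (-0.12 without resistant replicate 2 and -0.11 without parental replicate 2, up to 0.32), GCLM (-0.059 without parental replicate 2 and -0.0054 without resistant replicate 1, up to 0.65) and GPX4 (-0.17 to 0.073, positive without resistant replicate 1); the cause was not tested. HMOX1 had an adjusted p of 9.47e-26 without a filter and 0.396 with DESeq2. Libraries that share a replicate number did not deviate together (r = 0.0022 over 10089 genes); with the replicate block 0 members were called, HMOX1 had a log2 fold change of 1.78 (adjusted p = 0.356) and PIR one of -1.99 (adjusted p = 0.0409). With 2 libraries per group, a difference that rests on 1 library, as in HMOX1, cannot be separated from the spread.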

Other observations

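HMOX1 was not alone in setting the resistant libraries apart. Of 10089 genes that averaged 10 CPM or more, the 5 with the largest log2 difference between them were ANKRD1, HMOX1, HSPA1A, MYEOV and HSPA1B, named after their values were seen. HSPA1A and HSPA1B encode nearly identical inducible heat shock proteins, so the split of reads between them is uncertain. HSPA1A had 92.6 and 13.4 CPM in resistant replicates 1 and 2, against 23.0 and 14.8 CPM in parental replicates 1 and 2. HSPA1B had 72.9 and 14.8 CPM in the resistant libraries, against 18.8 and 13.2 CPM in the parental ones. Both were thus high in the same library as HMOX1. ANKRD1, a stress-responsive muscle ankyrin repeat gene, had 3.17 and 41.7 CPM in the resistant libraries, against 49.9 and 17.8 CPM in the parental ones. MYEOV had 1.93 and 11.3 CPM in the resistant libraries, against 11.3 and 21.2 CPM in the parental ones. These differences within a group carry no test.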
